A study of Homo sapiens with 3 samples.

Results

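Stem-loop 3 (SL3) of the human 7SK RNA was taken as nucleotides A200 to A279, counted from the 5' end, with rounded boundaries. All 80 positions had an effective depth (reads usable for mutation calling) of at least 1000 in each of 3 libraries, and so all 80 of the 287 measured nucleotides of the RNA entered. The libraries came from HEK293T, a human embryonic kidney cell line. For 2 of them, SDA was added at 10 mM, a reagent whose NHS ester couples to lysines and whose diazirine is then joined by light to RNA close by. In the only control library, the cells received 0.5% DMSO in its place. All cells were kept for 10 min at 37 °C and exposed, on ice, to 365 nm light at 2 J/cm2, so the control shows the rate with light and without SDA. Adducts were read as mutations in cDNA made with a primer for 7SK (RNP-MaP). Nothing in the labels says that the SDA libraries are separate cultures, so p-values measure a spread that may be technical.

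7SK is a small nuclear RNA that, with HEXIM proteins, holds the elongation factor P-TEFb inactive. LARP7 and MePCE are its stable partners. When P-TEFb is released, heterogeneous nuclear ribonucleoproteins (hnRNPs) occupy more of the RNA, and SL3 is the stem-loop best known for binding them. hnRNP A1, one of these proteins, recognises UAG through its RNA recognition motifs. No protein was measured in these libraries, so the name of the domain is background and was not tested.

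The sequence of the domain, as deposited, is shown with the UAG trinucleotides in capitals, then with the 10 highest control mutation rates of SL3 in capitals, and then with the 14 nucleotides called higher with SDA than in the control.
UAG: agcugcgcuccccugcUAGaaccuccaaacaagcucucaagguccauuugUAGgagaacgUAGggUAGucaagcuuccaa
background: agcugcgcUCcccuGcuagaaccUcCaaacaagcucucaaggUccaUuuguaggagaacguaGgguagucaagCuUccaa
higher: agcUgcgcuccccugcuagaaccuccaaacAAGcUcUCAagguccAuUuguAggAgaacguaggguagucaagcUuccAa
The domain holds 22 A, 23 C, 18 G and 17 U. In the minimum free energy structure that RNAfold predicted for the whole RNA, 49 of the 80 nucleotides were paired. The prediction is an imperfect hairpin. Helix strands 200 to 203 and 271 to 274 close its base, and 210 to 215 pair with 259 to 264. Above an internal loop of 216 to 220 and 254 to 258, nucleotides 221 to 223 pair with 251 to 253 and 225 to 228 with 246 to 249. The top is a short helix, 232 to 234 with 240 to 242, that closes a hairpin loop of 235 to 239. Nucleotides 275 to 277 were predicted to pair outside the domain, with 188 to 190.

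Depth over SL3 was even. Effective depth ran from 191353 to 213236 in SDA replicate 1, from 211829 to 232906 in SDA replicate 2 and from 255001 to 279848 in the control. SL3 gave 33506, 36507 and 41070 mutations in that order. The lowest mutation count of any SL3 nucleotide in any library was 58, so none was at 0. Effective depth over SL3 was a median of 92.2% of read depth in SDA replicate 1, 94.0% in SDA replicate 2 and 94.4% in the control, and the part of this difference in the rates was not tested.

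The background of SL3 without SDA was concentrated at few positions. The 10 highest control rates held 54.2% of all SL3 mutations of the control and ran from 0.503% to 1.17%, against a median of 0.0601% over the other 70 nucleotides. The median control rate was 0.0670% over all of SL3, lower than the 0.0969% of the other measured nucleotides. The pooled control rate, all mutations over all effective reads, was 0.190% in SL3 and 0.177% elsewhere. Of the 10 highest control rates of the whole RNA, 6 lay in SL3 (7.50% of its nucleotides, against 3.48% over the RNA), and of the 20 highest, 7 did (8.75% against 6.97%). These ranks are a description with no test. The 10 were 5 U, 3 C, 2 G and 0 A, and 9 of them were predicted to be paired.

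C273, in the basal helix, had the highest rate, at 1.17% in the control (exact 95% interval 1.13% to 1.22%), 1.18% in SDA replicate 1 and 1.21% in SDA replicate 2. U223 had 1.04% in the control (1.00% to 1.08%), with 1.145% and 1.07% in the SDA libraries. C225, separated from U223 by a single nucleotide, had 0.967% (0.930% to 1.00%), with 1.04% and 1.02%. At these positions SDA and control rates were nearly equal in size, with the SDA rates above the control throughout. C209 had 0.951% in the control, 0.935% in SDA replicate 1 and 0.962% in SDA replicate 2. U275 had 0.919%, 0.941% and 0.895% in the same order, and G262 had 0.873%, 0.954% and 0.886%. The SDA libraries lay on both sides of the control at C209 and U275, and above it at G262. U208 had 0.749%, 0.735% and 0.744%, the only one of the 10 with both SDA rates below the control. U242 had 0.578%, 0.627% and 0.641%, U246 had 0.548%, 0.551% and 0.563%, and G214 had 0.503%, 0.536% and 0.529%. Over the 10, the ratio of the SDA mean to the control ran from 0.987 at U208 to 1.10 at U242. edgeR's quasi-likelihood test called 0 of the 10 higher than the control and 0 lower, with standard errors (SE) of the log2 ratio between 0.08 and 0.09. As a difference of rates, the 10 ran from -0.977 to 6.64 mutations per 10000 reads (SDA minus control), with a median of 2.34, against a median of 1.14 over the other 70.

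**Figure D1:**
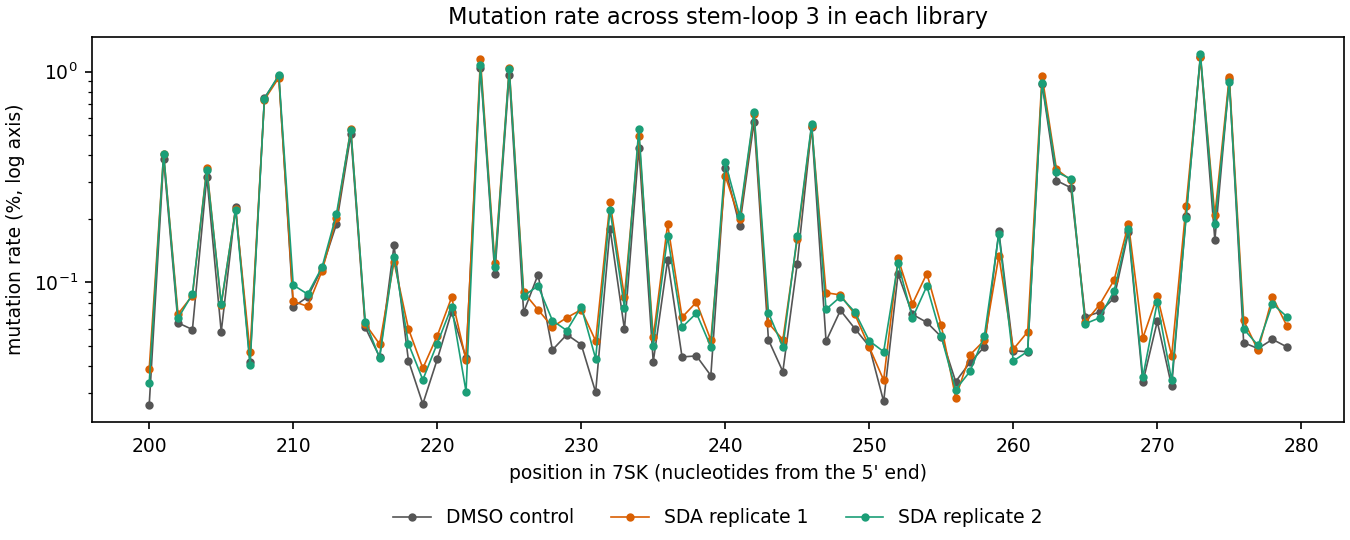
Mutation rate in percent, on a log axis, at each nucleotide of stem-loop 3 in the DMSO control and the 2 SDA libraries. The libraries follow the same peaks, the tallest at position 273 with 1.17% in the control, and the SDA lines lie slightly above the control over most of the domain.

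With SDA, rates were slightly higher over most of SL3. The control had a median rate of 0.0670% in the domain, SDA replicate 1 had 0.0831% and SDA replicate 2 had 0.0792%. The rate was above the control in both SDA libraries at 58 of 80 nucleotides (72.5%, against 79.4% over the whole RNA) and below it in both at 8 (10%, against 8.36%). Both libraries are set against the same control, so these counts are not independent. The longest runs of neighbours above the control in both libraries were 228 to 239, with 12 nucleotides, and 241 to 249, with 9. They include the whole predicted hairpin loop. The median ratio per nucleotide of SDA to control was 1.11 ± 0.0381 (SD between SDA libraries, n = 2, which leaves out the spread of the control). Over the 207 other measured nucleotides it was 1.14 ± 0.0305, close to that of SL3.

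The median ratio of SDA to control was highest for adenosines, in SL3 and elsewhere. The 22 adenosines of SL3 had a median ratio of 1.33 (1.30 with replicate 1 alone and 1.29 with replicate 2), against 1.49 (1.44 and 1.46) for the 38 adenosines elsewhere. The 17 uridines had 1.07 (1.09 and 1.06), against 1.19 (1.19 and 1.18) for 42 elsewhere. The 23 cytidines had 1.10 (1.11 and 1.06), against 1.12 (1.16 and 1.15) for 67, and the 18 guanosines 1.08 (1.11 and 1.07), against 1.11 (1.13 and 1.10) for 60. For each of the 4 bases, the median in SL3 was lower than elsewhere in both SDA libraries. Control medians of the same sets were 0.0474% in SL3 and 0.0496% elsewhere for A, 0.0583% and 0.0649% for C, 0.196% and 0.162% for G, and 0.159% and 0.146% for U. As a difference of rates, uridines of SL3 rose by a median of 1.26 mutations per 10000 reads, against 4.30 for uridines elsewhere. For A the medians were 1.43 and 1.89, for G 1.499 and 2.02, and for C 1.05 and 1.02. By this measure A was not the highest in SL3 or elsewhere. The part of the control rate in the order of the bases was not tested.

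**Figure D2:**
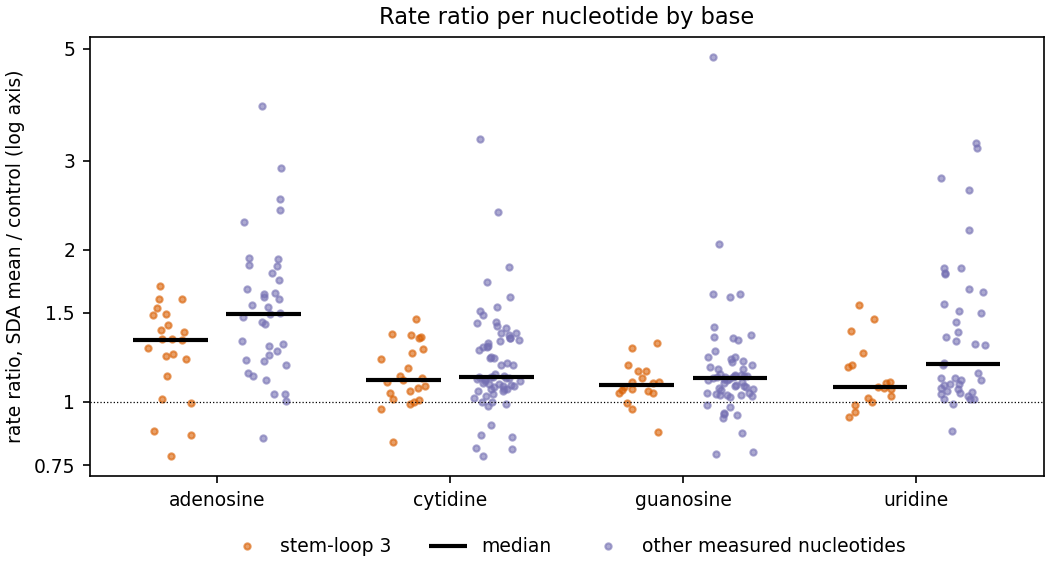
Ratio of the mean SDA mutation rate to the control rate, on a log axis, for each nucleotide of stem-loop 3 and for the other measured nucleotides, by base; black bars are medians. Ratios reach 4.82 among the other nucleotides and 1.70 in stem-loop 3.

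The difference between SL3 and the rest of the RNA was taken within each library, as the mean log2 rate of SL3 nucleotides minus that of all others, after removal of each base's mean. SDA replicate 1 gave -0.14, SDA replicate 2 gave -0.17 and the control gave 0.01. The SDA values lie close together and both are below the control's. An exact two-sided permutation test of the libraries gave p = 0.333, the smallest p that 2 against 1 libraries allow, so the design cannot pass a threshold of 0.05 here. On ratios to the control centred on the median of the same base (called centred below), the mean of SL3 minus that of the rest was -0.17 ± 0.0178 (SD, n = 2), and the difference of medians was -0.071.

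Against the control, 14 of the 80 SL3 nucleotides were called higher with SDA and 0 lower (edgeR with Benjamini-Hochberg adjustment over all 287 nucleotides, at 0.05). That is 17.5% of SL3, against 29.3% over the RNA for higher and 0.697% for lower. At an unadjusted p under 0.05, edgeR had 23 higher (28.7%, against 36.6%) and 1 lower (1.25%, against 2.09%). The 14 called after adjustment were 7 A, 5 U, 1 C and 1 G, with ratios from 1.18 to 1.70. Of the 35 nucleotides within 17 of the middle of the predicted hairpin loop, 11 were among the 14. That is close to the share over the RNA, 84 of 287 (29.3%), and the distance was set after the values were seen. DESeq2 called 0 in SL3 (5 at an unadjusted p under 0.05, and 15 of the 80 without an adjusted p), against 27 of 287 over the RNA (9.41%). The 12 of the 14 with an adjusted p had DESeq2 log2 ratios of 0.24 to 0.76, the range of the 14 in edgeR. With read depth in place of effective depth, edgeR called 0 in SL3 (19 unadjusted; adjusted p of the 14 from 0.0619 to 0.208), against 23 over the RNA (8.01%), with log2 ratios of the 14 from 0.23 to 0.74. Size factors from the mutation counts move the median log2 ratio of all nucleotides from 0.18 to -0.02 and that of SL3 from 0.15 to -0.05. With them, 2 SL3 nucleotides were called higher, A238 and A254 (2.5%, against 12.5% over the RNA), and 5 lower (6.25%, against 5.23%).

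The hairpin loop and its closing helix held 5 of the 14. They were 3 of 5 loop nucleotides, 2 of 3 in strand 232 to 234 and 0 of 3 in strand 240 to 242 (29.3% over the RNA). A238, in the loop, had a rate of 0.0448% in the control (exact 95% interval 0.0373% to 0.0534%), 0.0806% in SDA replicate 1 and 0.0715% in SDA replicate 2. Both SDA rates lie above the interval of the control, and the log2 ratio was 0.76 (SE 0.19, edgeR adjusted p = 0.000927). U236 rose from 0.128% (0.115% to 0.142%) to 0.189% and 0.165%, a log2 ratio of 0.47 (SE 0.13, edgeR adjusted p = 0.00274). C237 rose from 0.0443% (0.0366% to 0.0531%) to 0.0683% and 0.0612%, a log2 ratio of 0.54 (SE 0.20, edgeR adjusted p = 0.0249). The other loop nucleotides, C235 and A239, also lay above the control in both libraries but did not pass (edgeR adjusted p = 0.237 and 0.0509). In the closing helix, G232 rose from 0.180% (0.164% to 0.197%) to 0.240% and 0.221%, and U234 from 0.434% (0.410% to 0.460%) to 0.494% and 0.535%. As the mean of both libraries, U234 had the largest increase in absolute terms of the 14, 7.97 mutations per 10000 reads (5.93 and 10.0), with a ratio of 1.18, the smallest of the 14. In SDA replicate 1 alone, U236 (6.08) and G232 (5.98) had slightly larger increases. The log2 ratios of G232 and U234 were 0.35 and 0.24 (edgeR adjusted p = 0.00959 and 0.0272).

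Next to the closing helix, A230 rose from 0.0507% in the control to 0.0742% and 0.0768%, and A231 from 0.0302% to 0.0528% and 0.0435%. Both belong to the unpaired stretch 229 to 231, and their log2 ratios were 0.57 and 0.67 (edgeR adjusted p = 0.0127 and 0.00948). On the other side, A245 rose from 0.123% to 0.161% and 0.166%. U247 rose from 0.0526% to 0.0893% and 0.0745%. Their log2 ratios were 0.41 and 0.63 (edgeR adjusted p = 0.00959 and 0.0061). A251 rose from 0.0272% to 0.0344% and 0.0469%, so that the SDA libraries differed by more from each other than replicate 1 did from the control. Its log2 ratio was 0.59 (edgeR adjusted p = 0.0237). Without SDA replicate 2 the log2 ratio was 0.34, from 1 library against 1 control, which makes no call between conditions. A254, at the start of the internal loop, rose from 0.0647% to 0.110% and 0.0961%, a log2 ratio of 0.67 (SE 0.17, edgeR adjusted p = 0.000873).

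Outside the upper hairpin, 3 nucleotides were called. U203, at the inner end of the basal helix, rose from 0.0598% in the control to 0.0866% and 0.0881%. U274, on the other strand of that helix, rose from 0.159% to 0.208% and 0.189%. A278, in the unpaired 3' end of the domain, rose from 0.0537% to 0.0854% and 0.0791%. The SDA rates lay above the control in each case, with log2 ratios of 0.55, 0.32 and 0.61 (edgeR adjusted p = 0.0127, 0.0281 and 0.00621). At the boundary itself, A200 inside and U199 outside had ratios of 1.38 and 1.29, and A279 inside and G280 outside 1.33 and 1.16.

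After centring, SL3 had no nucleotide called above its base. Of its 80 nucleotides, edgeR called 0 above their base (9.41% over the RNA) and 4 below (5%, against 4.18%). At an unadjusted p under 0.05, edgeR had 3 above (3.75%, against 16.7%) and 9 below (11.2%, against 8.36%). DESeq2 called 0 above in SL3 (0 unadjusted), against 15 of 287 over the RNA (5.23%). The highest centred log2 ratios in SL3 were 0.48 at U247 (edgeR adjusted p = 0.0838), 0.39 at U203 (0.150), 0.39 at C237 (0.215), 0.31 at U236 (0.102), 0.28 at C244 (0.434) and 0.28 at C205 (0.389). Outside SL3 the highest was 2.12. The loop adenosine A238, with the highest ratio to the control in SL3, had a centred value of 0.27 (edgeR adjusted p = 0.434). The upper 95% limit of the centred ratio was under 2 at all 80 nucleotides of SL3 (94.1% over the RNA) and under 1.5 at 70 of them (87.5%, against 77%). These limits rest on the spread shared between nucleotides and on 1 control library. With 1 median for the whole RNA as centre, A238 and A254 were above (2.5%, against 13.6%), and with boundaries moved 5 nucleotides toward the 5' end, 1 nucleotide was.

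The 4 nucleotides below their base were A217, A227, A256 and G259. A227, in the helix of 225 to 228, had a rate of 0.109% in the control (exact 95% interval 0.0968% to 0.122%), 0.0742% in SDA replicate 1 and 0.0962% in SDA replicate 2. After centring, the log2 ratio stood at -0.83 (SE 0.16), with an edgeR adjusted p = 4.71e-06. A217, in the internal loop, had 0.150% (0.136% to 0.165%), 0.125% and 0.132%, and stood at -0.70 after centring (SE 0.13), with an edgeR adjusted p = 3.99e-06. In A217 and A227 both SDA rates lay below the interval of the control. A256, in the opposite strand of that loop, had 0.0339% (0.0273% to 0.0415%), 0.0284% and 0.0310%, with a centred value of -0.67 (edgeR adjusted p = 0.0102). G259, the first nucleotide of the helix strand 259 to 264, had 0.174% (0.159% to 0.191%), 0.134% and 0.170%, with a centred value of -0.34 (edgeR adjusted p = 0.0460). The rates of A256, and of G259 in SDA replicate 2, lay within the interval of the control.

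Set against the control without centring, 0 of the 4 passed: edgeR adjusted p was 0.206 for A217, 0.0806 for A227, 0.511 for A256 and 0.228 for G259. DESeq2 called A217 and A227 below their base (adjusted p = 0.0228 and 0.0294), which were its only such calls over the RNA, gave G259 an adjusted p of 0.814 and gave A256 none. Read depth as offset called 0 below in SL3 (8 unadjusted) and 0 over the RNA. Without SDA replicate 1, the centred value of G259 was -0.16 and that of A256 was -0.59. These come from 1 library against 1 control, which makes no call between conditions. With 1 median for the whole RNA as centre, A217 was at -0.39, A227 at -0.52 and G259 at -0.37 (edgeR adjusted p = 0.0204, 0.00825 and 0.0195), and A256 at -0.36 was not called (0.234). With the medians of bases taken outside SL3 only, 8 were below (10%, against 6.27% over the RNA), namely the 4 and U208, A257, A266 and U275. The lowest values after those of A227, A217 and A256 were -0.50 at A257 (edgeR adjusted p = 0.0938), -0.47 at A266 (0.0596) and -0.43 at C222 (0.153).

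**Figure D3:**
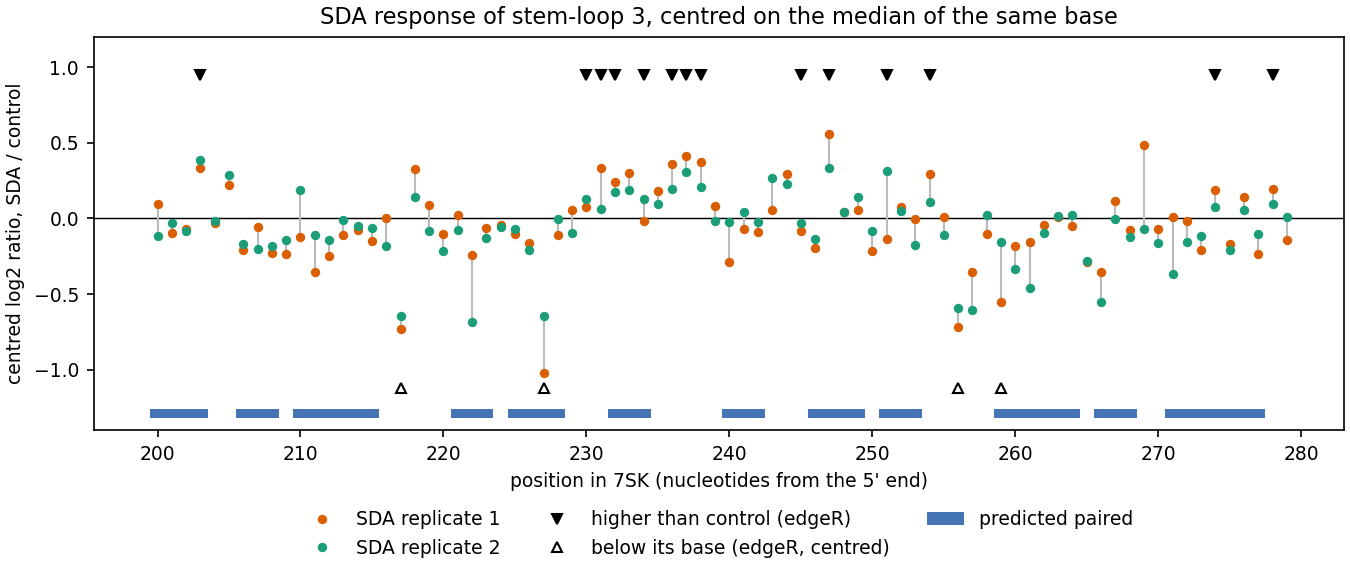
Centred log2 ratio of SDA to control at each nucleotide of stem-loop 3, with a point for each SDA library and a grey line between them. Filled triangles mark the 14 nucleotides higher than the control by edgeR, open triangles the 4 below their base, and blue bars the predicted pairs; the points of A230 to C233 and C235 to A238 lie above 0 in both libraries, and those of A256, A257 and G259 to G262 below 0.

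The predicted elements of the hairpin differed in the size of the increase. Over helix strand 232 to 234 the median increase was 5.04 mutations per 10000 reads (5.93 in SDA replicate 1 and 4.10 in SDA replicate 2), the largest of the 25 stretches of the prediction, and over the hairpin loop it was 2.05 (2.40 and 1.69). All 5 loop nucleotides and all 3 of 232 to 234 lay above the control in both libraries. In the lower part, the median was -0.683 over helix strand 206 to 208 (-0.575 and -0.549), where 0 of 3 lay above the control in both libraries. It was -0.447 at U265 (-0.391 and -0.504) and 0.382 over 254 to 258 (0.371 and 0.0270). These are values of 1 to 6 neighbouring nucleotides with no test, and the helix strand 232 to 234 also had a high control median, 0.180%. As centred log2 ratios, the medians were 0.27 for the hairpin loop and 0.21 for 232 to 234, and -0.15 for 259 to 264.

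**Figure D4:**
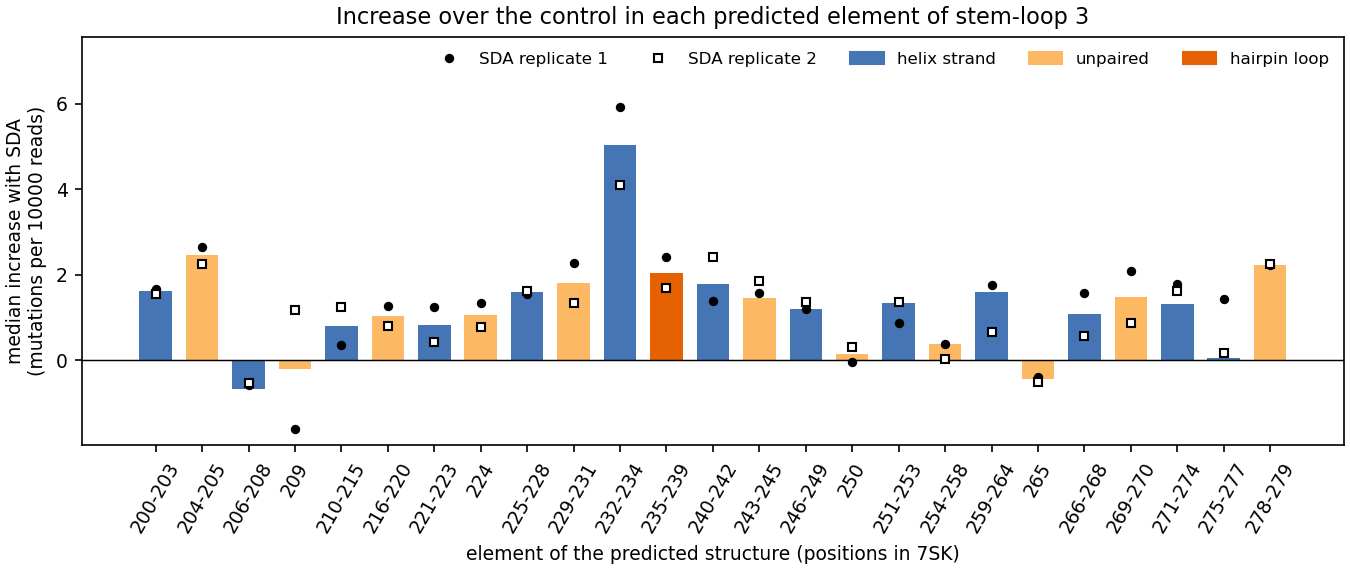
Median increase of the mutation rate with SDA over the control, in mutations per 10000 reads, in each helix strand and unpaired stretch of the predicted structure. Bars are medians of the mean of both SDA libraries, and points are medians in each library, so a point pair need not surround its bar; the strand 232 to 234 stands highest at 5.04, and 206 to 208 and 265 lie below 0 in both libraries.

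Predicted unpaired nucleotides of SL3 responded little more than paired ones. After centring, the 31 unpaired nucleotides averaged -0.0037 on the log2 scale and the 49 paired ones -0.069, which differ by 0.065 ± 0.0479 (SD, n = 2). Outside SL3 the means were 0.19 over 86 unpaired and 0.08 over 121 paired nucleotides. Before centring, the median ratio in SL3 was 1.28 for unpaired and 1.08 for paired nucleotides, but 45.2% of the unpaired and 16.3% of the paired were adenosines. Within adenosines the medians were 1.36 for 14 unpaired and 1.23 for 8 paired, and within cytidines 1.26 for 10 and 1.05 for 13. Guanosines had 1.09 for 3 unpaired and 1.06 for 15 paired, and uridines 1.05 for 4 unpaired and 1.09 for 13 paired, the other direction. Control rates of paired guanosines and uridines were high, with medians of 0.207% and 0.189%, against 0.0552% and 0.0592% for the unpaired ones. Values of so few neighbours in a single predicted structure are given with no test.

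The UAG trinucleotide, searched on the RNA strand alone and without overlap between matches, occurs 7 times in 7SK, of which 4 lie in SL3, starting at 216, 250, 260 and 265. A match is a description of the letters and not a binding site. Of all windows of 80 nucleotides along the RNA, 96.4% hold at least 1 UAG and 13.4% at least 4. The uridines of the SL3 matches had ratios of 0.935 to 1.07 to the control and centred log2 ratios of -0.25 to -0.06. Their adenosines had centred values of -0.70 (A217), 0.10 (A251), -0.33 (A261) and -0.47 (A266), and their guanosines 0.24 (G218), 0.06 (G252), -0.07 (G262) and 0.05 (G267). Of these 12, A217 alone passed a centred test, and A251 alone was higher than the control. The remaining matches start at 76, 163 and 199, the last of which reaches into SL3 with A200 and G201. Their centred values ran from 0.22 to 1.32 for U, from -0.03 to 0.41 for A and from -0.06 to 0.54 for G. Of those 9 nucleotides, 7 were called higher than the control and 2, U163 and G165, above their base, against 29.3% and 9.41% of all nucleotides. The 2 not called higher were A200 and G201, the members of SL3 among the 9. The difference between these matches and those within SL3 was not tested.

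The SDA libraries were also set against each other at each SL3 nucleotide. By Fisher's exact test, 0 of 80 differed after adjustment over all nucleotides (0.697% over the RNA), and 9 did at an unadjusted p under 0.05 (11.2%, against 10.8%). Both shares are above 0.05, the most that counting error alone would give on average, so the lack of adjusted calls does not show agreement. The rate in replicate 1 was between 0.733 and 1.53 times that in replicate 2 (median 1.05), with the extremes at A251 and C269. C269 had a control rate of 0.0336%, with 0.0545% in SDA replicate 1 and 0.0356% in SDA replicate 2, so replicate 1 alone lay above the control's interval (0.0271% to 0.0413%).

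Within SL3, the authors' deposited tables hold 5 sites for replicate 1 (6.25%, against 16.4% over the RNA) and 1 in replicate 2 (1.25%, against 12.9%). A238 is the only site in both (1.25%, against 10.8%). In the authors' deposited tables its ratio is 1.80 in replicate 1 and 1.60 in replicate 2, over thresholds for adenosine of 1.54 and 1.54, and its Z-factor score is 0.263 and 0.0736. The sites of replicate 1 alone in the authors' deposited table are U236, U247, A254 and A278. In replicate 2 of the authors' deposited tables, A254 has a ratio of 1.49, under the threshold, and a Z-factor score of 0.0653, and U247 has 1.42 and -0.227. U236 has 1.29 and -0.0858 there, and A278 has 1.47 and -0.0436. A ratio over the threshold with a Z-factor score above 0 was not enough for a site. In the authors' deposited tables, A231 in replicate 1 (1.75 and 0.0363) and A251 in replicate 2 (1.72 and 0.00444) had both and are not sites. All 5 sites were among the 14 nucleotides that edgeR called higher than the control, a comparison that shares the libraries with the authors' tables. None had a ratio of at least 1.5 times its threshold in both replicates of the authors' deposited tables.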

How the data were processed

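Per the labels, 7SK was amplified from HEK293T RNA after SDA (2 libraries) or DMSO (1 library). Per the file headers, the authors deposited counts of mutations, of read depth and of effective depth per nucleotide, and a mutation rate as a fraction, checked to equal mutations over effective depth. They also deposited a ratio of SDA to control rate, a Z-factor score, a site call and a threshold per base. Modified columns were taken as the SDA replicate that the table is named for, and untreated columns, identical in both tables, as the control. The labels and headers used here name no aligner, caller or build, so genomic coordinates are left out. The RefSeq table of GRCh38.p14 lists RN7SK, an snRNA gene, with a length of 332, that of the deposited sequence.

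A nucleotide entered with an effective depth of 1000 in every library and 1 mutation or more in total. Mutation counts went into edgeR 4.0.16 under R 4.3.3 (glmQLFit, glmQLFTest, offset log effective depth, common dispersion 0.00178, Benjamini-Hochberg at 0.05 over 287 nucleotides). In the centred fit, the median log2 ratio of the same base (pseudocount 0.5) entered the SDA offsets. With 1 residual degree of freedom for each nucleotide, the fit takes the control to vary as the SDA pair does. Each SE is the size of the log2 ratio divided by the root of F. The limits on ratios are 95% normal intervals from it. Rate intervals are Clopper-Pearson at 95%. Reads are PCR copies without molecular identifiers, so these cover counting error only. At median depth, a count of 0, read as up to 3, would allow a rate of 0.00147%, 0.00134% and 0.00111% in SDA replicates 1 and 2 and the control. DESeq2 1.42.0 was an alternative. Structure came from RNAfold 2.7.2, and other tests from Python 3.11.15 with scipy 1.17.1. The edgeR fits were run on simulated data drawn with the fitted common dispersion and no general shift with SDA. Such data cannot check whether 1 dispersion holds for all nucleotides.

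Named nucleotides were, within SL3, the 10 highest control rates, all called by either edgeR fit or by the authors, the 6 highest and 6 lowest centred ratios, those differing between SDA libraries, the UAG matches and the hairpin loop. The domain, lists and tests were chosen with earlier results of these data known. C269 was named after its values were seen.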

Additional observations from a re-analysis of the deposited data

Results flagged for a closer look

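Off-target reads, which no comparison used, took a higher share of read depth over SL3 with SDA than with DMSO. SDA replicate 1 had a median share of 0.0532%, SDA replicate 2 had 0.0422% and the control had 0.0370%. A single control gives no replicate check of this, and its part in the mutation rates was not tested.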

How the results depend on the processing

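No paired analysis was possible because the control is a single library without a replicate number. The count of 14 SL3 nucleotides higher than the control was 0 with DESeq2, 0 with read depth as offset and 2 with median-ratio size factors, and 20 to 26 by exact tests of single libraries (26 without SDA replicate 2). The count of 0 lower was 5 with size factors. With read depth, edgeR had 2.60 prior degrees of freedom, against infinite ones. The cause of these changes was not tested. The count of 0 above their base was 2 when centred on 1 median for the whole RNA, 1 with boundaries moved toward the 5' end and 0 to 3 in single libraries. The count of 4 below was 2 with DESeq2, 0 with read depth, 8 with base medians from outside SL3 and 10 to 11 in single libraries. SL3 minus the rest, at -0.17, was -0.14 with 1 median for the whole RNA and without centring, -0.13 with boundaries moved toward the 5' end, -0.071 as medians and -0.18 to -0.16 without each SDA replicate. The median ratio, leaving out each SDA replicate, was 1.29 to 1.30 for A, 1.06 to 1.11 for C and 1.07 to 1.11 for G, and 1.32 for A with read depth. The authors' shared sites numbered 0 at 1.5 times the threshold, and 5 in replicate 1 alone. Size factors turned the balance of calls from 14 higher and 0 lower to 2 and 5, and the median log2 ratio of SL3 from 0.15 to -0.05. The planned tests of single libraries compare 1 library with 1 control, hold counting error only, and make no call between conditions. Their counts are left out for that reason. With 1 control library, its own spread limits every ratio.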
